A study of Mus musculus with 16 samples.

Results

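The effect of a lentiviral short hairpin RNA (shRNA) on mouse neurons was read from 8 of the 16 RNA-seq libraries of the series: 4 libraries labelled shRNA, which carried the hairpin without mutations, and 4 labelled Empty_Vector, which carried the vector without a hairpin. The libraries were chosen by these labels alone, and every gene that passed a filter on low counts was followed. The other 8 libraries, 4 with a hairpin carrying 2 point mutations (shRNA_2bp) and 4 with one carrying 5 (shRNA_5bp), share the estimate of the spread between libraries in the fit and otherwise serve as reference values. All the cultures were perinatal primary cultures of mouse forebrain neurons, and all were transduced with a lentiviral vector, the controls included. The labels name neither the target nor the sequence of the hairpin, nor its promoter, the viral dose or the days in culture. Whether replicates are independent cultures is also not given, and each p-value therefore measures the spread between libraries, which may be technical. By its title the study asks whether hairpins disturb microRNAs and the transcriptome of neurons independently of their target, and the comparison described here gives the whole effect of 1 hairpin, on its target and otherwise.

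A short hairpin RNA enters the microRNA pathway: Dicer cuts it to a small duplex, and one strand, the guide, is loaded onto an Argonaute protein. A transcript that pairs with the guide over its full length is cleaved, and this is the intended effect. The guide can also pair through its seed, a short stretch near its 5′ end, with many 3′ UTRs and lower those transcripts moderately, as a microRNA does, and hairpins share Dicer, Argonaute and their partners with the microRNAs of the cell. Neurons depend on microRNAs such as miR-124, miR-9 and let-7 for their identity and maturation.

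The 4 empty vector libraries held 33795369 to 46187568 counted reads and the 4 hairpin libraries 36143806 to 41152791. Levels are given as CPM (counts scaled by library size, with edgeR's TMM factors), in the order of replicates 1 to 4, and differences as log2 fold changes of hairpin over empty vector ± their standard errors. A gene is said to rise or fall where the Benjamini-Hochberg adjusted p of edgeR's quasi-likelihood test over 19479 genes was below 0.05. By that rule 40.3% of all genes changed, 20.8% rising and 19.5% falling, and these shares are the background for every count of list members. Most list members are protein-coding, and of all protein-coding genes the shares were higher, 25.3% rising and 23.4% falling. The 4 and 4 libraries did not overlap for 19.7% of genes in the upward direction and 18.7% in the downward direction. Most changes were moderate: 573 genes rose and 432 fell by at least 2-fold, and the median log2 fold change of all genes was 0.01. Neuronal transcripts were abundant, with Tubb3, the neuronal beta-tubulin, at 943 CPM and Syp, a synaptic vesicle protein, at 1067 CPM with the empty vector. The microglial markers stood near 0, with Aif1 at 0.372 CPM and Csf1r at 2.42 CPM. One library stood apart from its group by the number of distant genes. In the third hairpin library 135 well measured genes (mean log2 CPM of at least 2) lay more than 0.5 log2 units from the mean of the other 3 hairpin libraries, against 21 to 85 genes for the other 7 libraries. By the median absolute difference over these well measured genes the first hairpin library was the farthest, at 0.087 log2 units, against 0.078 for the third.

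Rtn4, which encodes the myelin-associated axon growth inhibitor Nogo, showed the lowest log2 fold change of all genes. Its level was 842, 837, 881 and 891 CPM with the empty vector and 30.9, 31.3, 29.9 and 29.9 CPM with the hairpin. No hairpin library came near the control range (log2 fold change -4.82 ± 0.05, edgeR adjusted p = 8.9e-26). The gene lies at chr11:29692947-29744331 on the plus strand (GRCm38.p6) and overlaps Eml6 on the opposite strand. The level differed by hairpin: it was 127 ± 3.40 CPM with 2 point mutations and 828 ± 37.2 CPM with 5 (mean ± SD, n = 4). The unmutated hairpin differed from both (log2 difference -2.05 ± 0.04, edgeR adjusted p = 4.2e-20, and -4.76 ± 0.05, edgeR adjusted p = 1.1e-25). In the fit over all genes, 62.7% of genes differed between the unmutated and the 2-mutation hairpin and 55.3% between the unmutated and the 5-mutation hairpin.

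The other reticulons and the receptors and partners of Nogo moved far less. Of the 13 measured members of this list, Rtn4 included, 2 rose, 6 fell and 5 did not pass the test (median log2 fold change -0.11). Rtn3, a reticulon of the tubular endoplasmic reticulum, fell from 1069 to 726 CPM (log2 fold change -0.56 ± 0.04, edgeR adjusted p = 4.8e-10). Rtn1 stood at 1193 and 1141 CPM without passing the test (edgeR adjusted p = 0.21). Among the receptors, the Nogo receptor gene Rtn4r had 56.1 and 52.02 CPM (edgeR adjusted p = 0.12). Its co-receptor gene Lingo1 fell from 318 to 204 CPM (log2 fold change -0.64 ± 0.05, edgeR adjusted p = 3.2e-10). Omg, which encodes another myelin ligand of that receptor, fell from 37.8 to 25.9 CPM (log2 fold change -0.54 ± 0.11, edgeR adjusted p = 0.00049). S1pr2, a sphingosine receptor that also binds Nogo, rose from 1.16 to 2.52 CPM (log2 fold change 1.12 ± 0.20, edgeR adjusted p = 0.00014). Rtn4ip1, a mitochondrial partner of Nogo, rose from 16.1 to 23.7 CPM (log2 fold change 0.56 ± 0.07, edgeR adjusted p = 2.5e-06).

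Which 3′ UTR sequences went with a fall was then described by scanning 15900 7-base sequences, each present in the longest annotated 3′ UTR of at least 100 of 14246 genes. For each one the log2 fold change was regressed on its presence, with UTR length and GC content as covariates, and the coefficients were ranked after weighting by how many genes informed them. The lowest pair of the ranking overlapped by all but 1 base: ATGAAAC, in 1599 genes (coefficient -0.21 log2 units), and TGAAACA, in 2224 genes (-0.18). Joined, they read ATGAAACA. The fold changes of these 8 libraries chose this 8-mer, so what follows about it is a description with no test. Its occurrences in Rtn4 and, as examples, in 10 of the 332 genes that fell with the 8-mer in the UTR are listed here, from GENCODE vM21 transcripts on GRCm38.p6, 5′ to 3′ on the transcript strand with the 8-mer in capitals.
Rtn4 coding sequence, exon 3 of 9, chr11:29707492-29707513 (+): attgcttATGAAACAaaagtgg.
Rtn4 3′ UTR, exon 7 of 7, chr11:29743013-29743034 (+): ttagttcATGAAACAgcttaag.
Lpl 3′ UTR, exon 10 of 10, chr8:68906827-68906848 (+): aactctgATGAAACAgtacaat.
Kctd12 3′ UTR, exon 1 of 1, chr14:102980433-102980454 (-): aaaaaatATGAAACAgtacgtg.
Kctd12 3′ UTR, exon 1 of 1, chr14:102976836-102976857 (-): ttttctaATGAAACAtaaatcc.
Rrm2b coding sequence, exon 8 of 9, chr15:37929083-37929104 (-): tgttttgATGAAACAgtacatt.
Rrm2b 3′ UTR, exon 9 of 9, chr15:37925476-37925497 (-): accagaaATGAAACAtggctct.
Gad2 3′ UTR, exon 16 of 16, chr2:22691098-22691119 (+): ggcagatATGAAACAtaagcca.
Htr2a 3′ UTR, exon 3 of 3, chr14:74709336-74709357 (+): tgcactgATGAAACAtatttat.
Tpd52 3′ UTR, exon 6 of 6, chr3:8930895-8930916 (-): ttgatgaATGAAACAaagtgaa.
Shroom2 3′ UTR, exon 10 of 10, chrX:152610333-152610354 (-): gcttgtaATGAAACAcataaca.
Ddit4 3′ UTR, exon 3 of 3, chr10:59950282-59950303 (-): ctgtagcATGAAACAaaggctt.
Cox6c 3′ UTR, exon 4 of 4, chr15:35932029-35932050 (-): ctgaactATGAAACAtgaatat.
Gria1 3′ UTR, exon 16 of 16, chr11:57327723-57327744 (+): caaagaaATGAAACAccgcctc.
In Lpl, in the upstream Kctd12 copy and in the coding copy of Rrm2b the 8-mer was followed by the same 4 bases, gtac. Rtn4 carried the 8-mer once in its long coding exon, which only some of its transcripts include, and once in its 3′ UTR.

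The fall was graded by the length of the match. Genes whose 3′ UTR held the whole 8-mer numbered 640, with a median log2 fold change of -0.22, and 51.9% of them fell. The median was -0.12 for the 959 genes with only ATGAAAC and -0.065 for the 1382 with only TGAAACA. Genes with no more than the 6-base core TGAAAC (1937 genes, median 0.0039) lay close to 0, and the 9328 genes with none of these had a median of 0.064 and 17.3% falling. Over all 14246 genes with a UTR, 23.6% fell and the median was 0.025. A further copy went with a lower level still: the median was -0.21 with 1 copy (589 genes), -0.48 with 2 (46 genes) and -0.93 in the 5 genes with 3 or more. Long UTRs hold more matches, and genes with the 8-mer had a median UTR of 2866 bases against 824 without a match. Within genes with UTRs of 500 to 1500 bases the medians were -0.19 with the 8-mer and 0.068 without a match, and above 3000 bases they were -0.23 and 0.079.

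**Figure D1:**
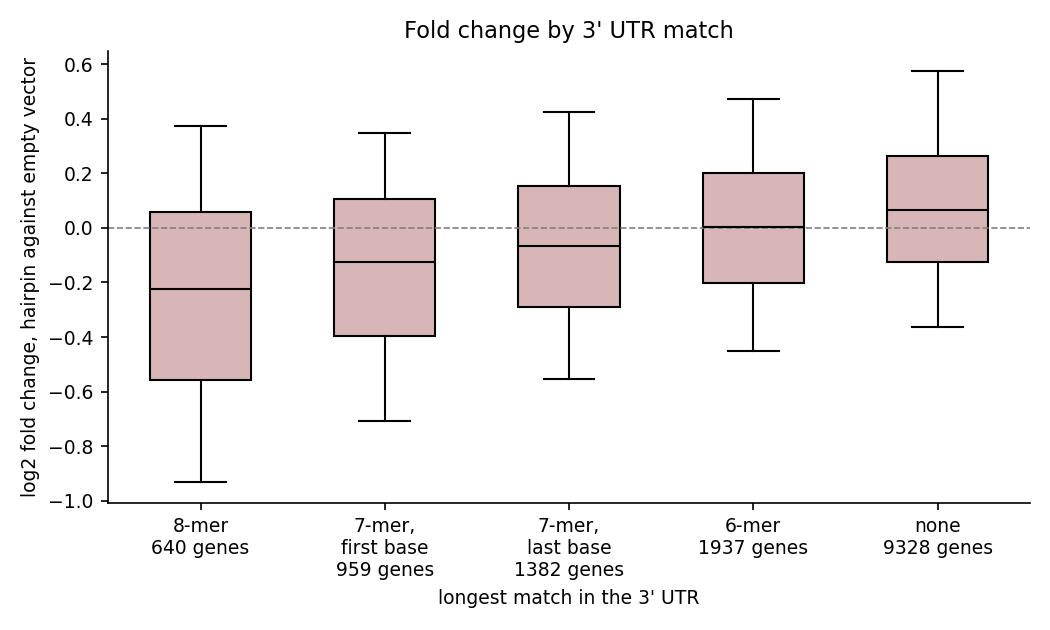
Log2 fold change of hairpin over empty vector for genes grouped by the longest match in the 3′ UTR to the 8-mer that ranked lowest in the scan; boxes give the quartiles and median, whiskers the 10th and 90th percentiles. The medians run from -0.22 with the 8-mer to 0.064 with no match.

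Scored library by library, as the regression coefficient of the 8-mer on each gene's deviation from the empty vector mean, the hairpin libraries had -0.296, -0.260, -0.258 and -0.278 log2 units. The empty vector libraries scattered around 0 with an SD of 0.0104, and the groups stood far apart. With mutated hairpins the same score was -0.061 ± 0.011 (2 point mutations) and -0.031 ± 0.018 (5 point mutations; mean ± SD, n = 4), between the controls and the unmutated hairpin. Matches were present in many genes that fell but not in most: a 7-mer or the 8-mer occurred in 36.9% of the 3365 genes with a UTR that fell, in 41.3% of the 283 that fell by at least 2-fold, in 13.4% of the 3635 that rose and in 20.9% of all.

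**Figure D2:**
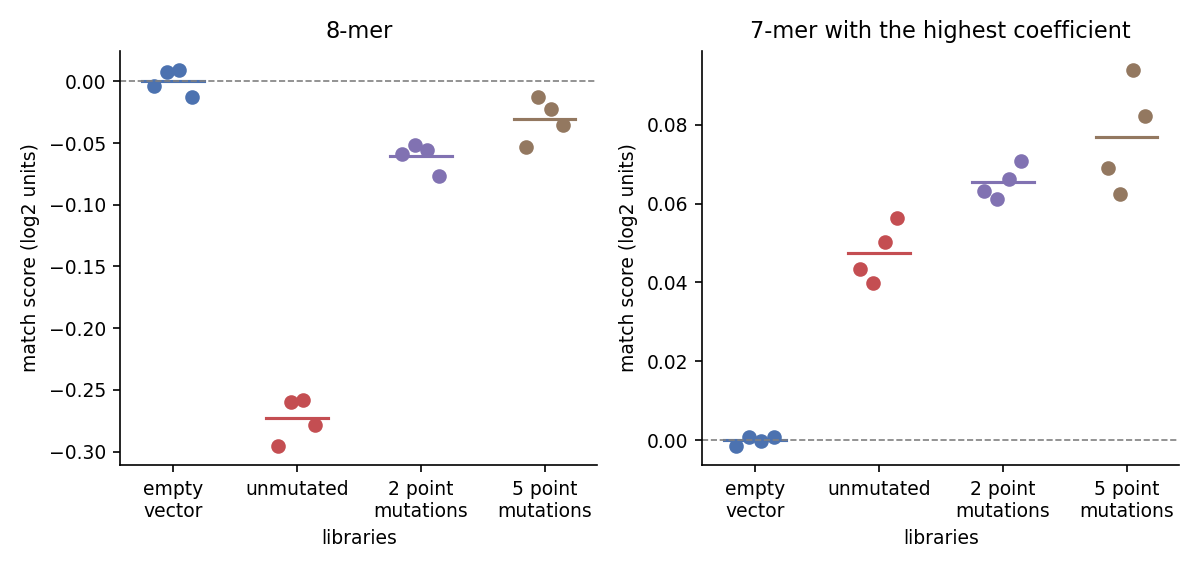
Match score per library (points; lines are group means, n = 4) in log2 units for the 8-mer at the low end of the scan (left) and for the 7-mer at its high end (right), with the mutated hairpins for reference. The 8-mer scores of the unmutated hairpin lie between -0.296 and -0.258, below every other library, while the scores at the high end lie above 0 in all 12 hairpin libraries.

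Of the 20 largest falls of well measured genes, 10 were in genes with the 8-mer. Lpl, lipoprotein lipase, had 41.6, 42.3, 44.1 and 46.4 CPM with the empty vector and 7.11, 8.26, 7.15 and 8.70 CPM with the hairpin. Every hairpin library was far below every control (log2 fold change -2.48 ± 0.11, edgeR adjusted p = 7.8e-12). Kctd12, an auxiliary subunit of GABA-B receptors whose UTR carries 2 copies, had 191, 217, 239 and 235 CPM with the empty vector and 51.1, 53.9, 62.9 and 54.8 CPM with the hairpin (log2 fold change -1.99 ± 0.08, edgeR adjusted p = 5.6e-13). Tpd52, a vesicle trafficking protein, had 80.4, 78.3, 77.7 and 79.4 CPM with the empty vector and 22.9, 21.4, 22.1 and 21.4 CPM with the hairpin, with hardly any spread within either group (log2 fold change -1.85 ± 0.04, edgeR adjusted p = 5.7e-18). Shroom2, a regulator of the actin and myosin network, fell from 137 ± 9.37 to 38.5 ± 2.84 CPM (log2 fold change -1.83 ± 0.07, edgeR adjusted p = 1.2e-14), and the serotonin receptor gene Htr2a from 8.70 ± 1.63 to 2.39 ± 1.09 CPM (log2 fold change -1.85 ± 0.25, edgeR adjusted p = 2.1e-05). Fam210b, a mitochondrial protein, fell from 22.1 to 5.33 CPM (log2 fold change -2.05 ± 0.11, edgeR adjusted p = 1.7e-12). Rtn4 is described above and Gad2 and Erbb4 with the interneuron genes, and the remaining gene, Ankrd29, an ankyrin repeat protein, fell from 15.1 to 3.92 CPM (log2 fold change -1.94 ± 0.09, edgeR adjusted p = 2.9e-13). Of these 10 genes, 9 were lower with the unmutated than with the 2-mutation hairpin (highest edgeR adjusted p = 0.0043), where 31.5% of all genes were lower. The exception, Gad2, was higher (log2 difference 1.16 ± 0.39, edgeR adjusted p = 0.019). Against the 5-mutation hairpin 8 were lower (highest edgeR adjusted p = 0.0031), where 28.5% of all genes were lower. The differences of Fam210b and Gad2 did not pass the test there (log2 differences -0.06 ± 0.11 and -0.09 ± 0.37, edgeR adjusted p = 0.67 and 0.85). These genes were chosen by their fall in the same hairpin libraries, so the counts are a description. Several of them were also below the empty vector with the mutated hairpins. Log2 fold changes with 2 and 5 mutations were -1.58 and -1.14 for Lpl and -1.22 and -1.28 for Shroom2. They were -1.23 and -1.99 for Fam210b, -0.86 and -0.52 for Ankrd29 and -3.32 and -2.07 for Gad2. Kctd12 was above the empty vector with 2 mutations (0.27), and Tpd52 and Htr2a with 5 (0.34 and 0.82).

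Other large falls came without the 8-mer in the UTR, and those of Lgi2, Hk2, Nxph1 and Nxph2 also without a 7-mer. The UTRs of Lgi2 and Nxph2 hold the 6-base core TGAAAC. All of the genes named here also stood below the empty vector with both mutated hairpins. Lgi2, a secreted synaptic protein of the epilepsy-related LGI family, had 192, 184, 201 and 175 CPM with the empty vector and 48.7, 51.1, 58.3 and 48.5 CPM with the hairpin (log2 fold change -1.87 ± 0.06, edgeR adjusted p = 9.0e-16). Hk2, the inducible hexokinase, fell from 28.8 ± 8.02 to 4.89 ± 2.30 CPM and varied more (log2 fold change -2.56 ± 0.41, edgeR adjusted p = 0.00023). Nxph1 and Nxph2, secreted ligands of alpha-neurexins, fell from 76.8 ± 1.22 to 17.7 ± 2.30 CPM and from 15.3 ± 1.16 to 2.09 ± 0.644 CPM (log2 fold changes -2.12 ± 0.09 and -2.87 ± 0.15, edgeR adjusted p = 1.1e-12 and 5.3e-12). In neither gene did the libraries overlap. Cacna2d2, a calcium channel subunit, and Setd7, a lysine methyltransferase, each with a 7-mer, fell from 43.7 to 8.78 CPM (log2 fold change -2.31 ± 0.09, edgeR adjusted p = 1.2e-14) and from 122 to 32.4 CPM (log2 fold change -1.92 ± 0.05, edgeR adjusted p = 2.6e-17). Log2 fold changes with 2 and 5 mutations were -2.12 and -1.202 for Lgi2, -3.74 and -3.57 for Hk2 and -1.603 and -1.62 for Nxph1. They were -0.77 and -0.68 for Nxph2, -2.004 and -2.49 for Cacna2d2 and -1.57 and -0.90 for Setd7. The unmutated hairpin was above the 2-mutation one for Lgi2 and Hk2 (edgeR adjusted p = 0.00083 and 0.043) and below it for the others. It was below the 5-mutation one except for Hk2 and Cacna2d2 (edgeR adjusted p = 0.083 and 0.13).

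Among the largest losses in absolute CPM were abundant transcripts of the cytoskeleton. Map1b, a microtubule-associated protein of growing axons, had 3699.8, 3721, 4181 and 4232 CPM with the empty vector and 2508, 2519, 2669 and 2698 CPM with the hairpin (log2 fold change -0.61 ± 0.05, edgeR adjusted p = 7.2e-09). Tuba1a, the alpha-tubulin of young neurons, fell from 2274 to 1533 CPM (log2 fold change -0.57 ± 0.06, edgeR adjusted p = 1.6e-07). Actg1, cytoplasmic gamma-actin, fell from 1405 to 793 CPM, Apc, which links microtubule ends to Wnt signalling, from 1413 to 786 CPM, and Dpysl3, a collapsin response mediator, from 1481 to 935 CPM, with a highest edgeR adjusted p of 1.2e-08. Among the largest gains were Nnat, an imprinted proteolipid of the endoplasmic reticulum, from 758 to 1183 CPM (log2 fold change 0.64 ± 0.12, edgeR adjusted p = 0.0004), and Ago2, from 354 to 516 CPM, described with the small RNA genes. The predicted transcript Gm26917 held 5.85 to 6.34% of counts with the empty vector and 7.37 to 8.02% with the hairpin. When it and Gm42418 were left out, 3819 genes rose and 3889 fell, against 4054 and 3805 with them. The cause of its higher share was not tested.

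**Figure D3:**
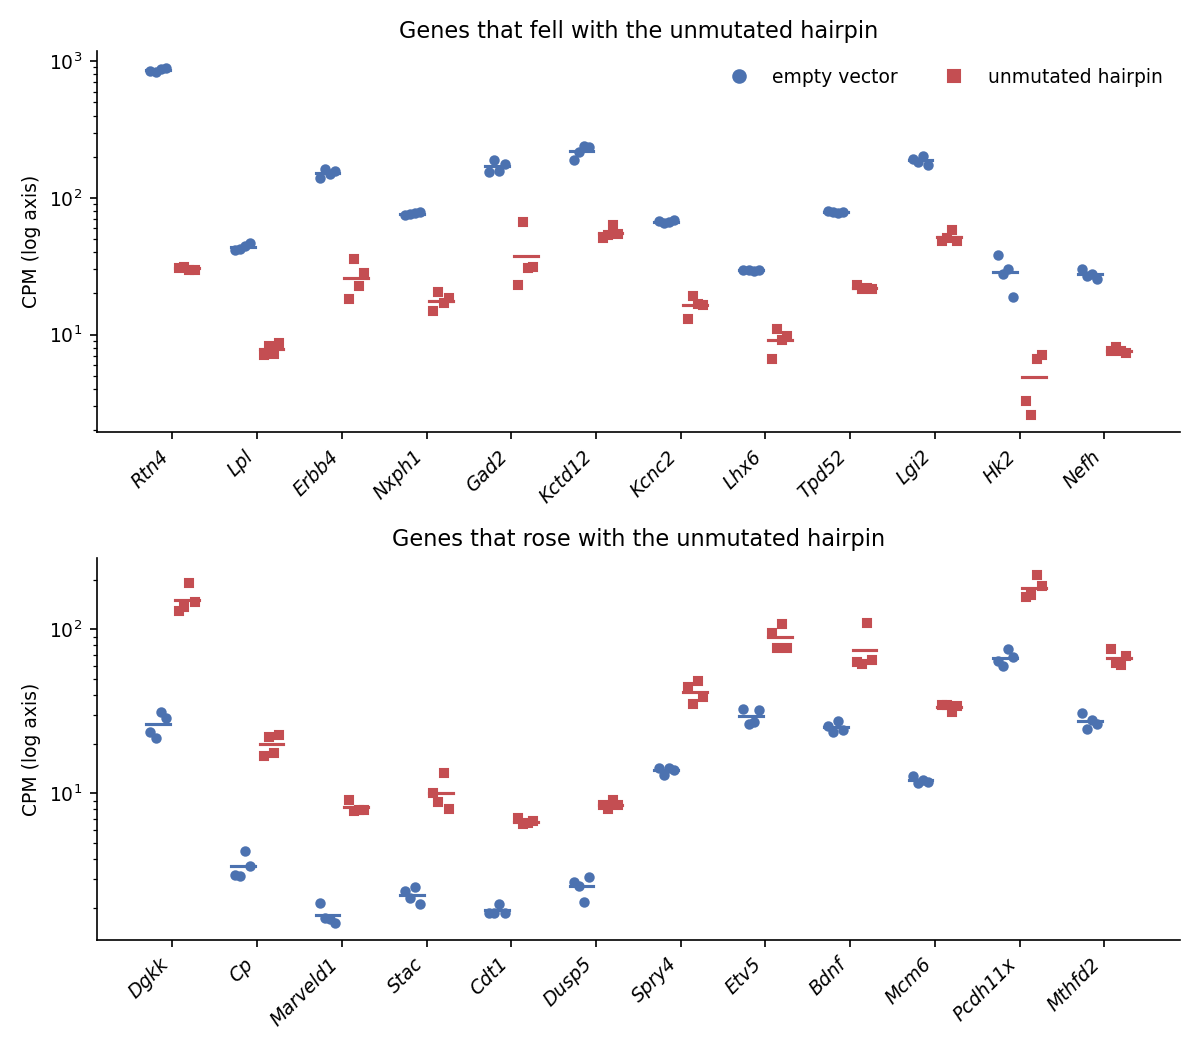
CPM on a log axis for 12 genes that fell (top) and 12 that rose (bottom) in each of the 4 empty vector (circles) and 4 hairpin (squares) libraries, with group means as lines. The libraries of the groups do not overlap for any gene shown; Rtn4 drops from 863 to 30.5 CPM and Dgkk rises from 26.4 to 152 CPM.

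The high end of the same scan was shallower. The 7-mer with the highest weighted coefficient was GTGCCTT, in 2249 genes, at 0.048 log2 units. It is the known match to the seed of miR-124, the most abundant microRNA of many neurons. Its score per hairpin library was 0.044, 0.040, 0.050 and 0.056, all above the highest control at 0.0009. Libraries of the hairpins with 2 and 5 mutations scored 0.065 ± 0.004 and 0.077 ± 0.014 (mean ± SD, n = 4). This 7-mer too was picked by the fold changes, and its mean score fell to 0.014 when UTR length and GC content were left out of the regression. In a list of known miR-124 targets with 25 measured members, 12 rose, 4 fell and 9 did not pass the test (median log2 fold change 0.22). Those that rose included Itgb1, the integrin beta 1 chain (from 71.9 to 111 CPM, log2 fold change 0.63 ± 0.05, edgeR adjusted p = 4.9e-09), Iqgap1, a scaffold of the actin cortex (from 27.5 to 38.9 CPM, log2 fold change 0.50 ± 0.06, edgeR adjusted p = 9.2e-07), and Ptbp1, the splicing repressor that miR-124 silences in neurons (from 20.4 to 25.8 CPM, log2 fold change 0.34 ± 0.07, edgeR adjusted p = 0.00029). Among the members that fell was Usp48 (from 93.1 to 81.3 CPM, log2 fold change -0.19 ± 0.04, edgeR adjusted p = 0.00065).

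The seeds of 41 microRNA families of neurons were scored in the same way, from 43 mature sequences in RefSeq (GRCm38.p6). mmu-miR-124-3p, mmu-miR-143-3p, mmu-miR-145a-5p, mmu-miR-383-5p and mmu-miR-485-5p were not scored. The 3 families with the lowest and the 4 with the highest scores are shown with the seed, bases 2 to 8, in capitals, and miR-132 is included because its own locus changed. mmu-miR-212-3p shares its seed. Where a microRNA has several genomic copies, the position of 1 is given.
mmu-miR-376a-3p (chr12:109723824-109723844, +): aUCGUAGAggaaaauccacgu.
mmu-miR-221-3p (chrX:19146307-19146329, -): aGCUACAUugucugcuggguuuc.
mmu-miR-137-3p (chr3:118433901-118433923, +): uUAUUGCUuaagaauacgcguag.
mmu-miR-132-3p (chr11:75173723-75173744, +): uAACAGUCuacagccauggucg.
mmu-miR-212-3p (chr11:75173443-75173464, +): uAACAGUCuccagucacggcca.
mmu-let-7a-5p (chr13:48538239-48538260, -): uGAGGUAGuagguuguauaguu.
mmu-miR-128-3p (chr1:128202404-128202424, +): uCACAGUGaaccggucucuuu.
mmu-miR-9-5p (chr3:88215613-88215635, +): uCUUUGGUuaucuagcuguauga.
mmu-miR-329-3p (chr12:109713541-109713562, +): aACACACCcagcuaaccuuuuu.
A score is the regression coefficient of the match at a given UTR length and GC content, and its sign depends on these covariates. With them 32 of 41 families scored below 0. Without them all 41 did, from -0.122 to -0.019, and in all 41 the median fold change was lower in genes with the match than in genes without. With the covariates, the lowest score belonged to miR-376a-3p, -0.087 ± 0.010 (mean ± SD over the 4 hairpin libraries), whose match occurred in 314 genes, and 34.7% of these fell. The next were miR-221-3p at -0.033 ± 0.005 and miR-137-3p at -0.029 ± 0.011, and the highest was miR-329-3p at 0.016 ± 0.006. The let-7 family stood at 0.0106 ± 0.0010, miR-128-3p at 0.0114 ± 0.0034 and miR-9-5p at 0.0114 ± 0.0098, and for miR-9-5p the libraries of the groups overlapped. Without the covariates let-7, miR-128-3p, miR-9-5p and miR-329-3p scored -0.024, -0.028, -0.028 and -0.030. The same kind of match for the lowest pair of the scan, ATGAAAC or TGAAACA, scored -0.184. The fold changes of these libraries chose that pair. The whole 8-mer, a longer match than the families were scored by, had -0.273.

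The genes that make and use small RNAs shifted upward in part. Of 18 measured members, 10 rose, 3 fell and 5 did not pass the test (median log2 fold change 0.17). Of the 7 members with a 7-mer or the 8-mer in the UTR 2 fell, as did 1 of the 11 without (medians 0.22 and 0.14). Ago2, the Argonaute that cleaves targets, had 329, 343, 368 and 374 CPM with the empty vector and 476, 510.2, 537 and 542 CPM with the hairpin (log2 fold change 0.55 ± 0.05, edgeR adjusted p = 1.3e-08). Ago1 rose from 128 to 170.0 CPM (log2 fold change 0.41 ± 0.04, edgeR adjusted p = 1.2e-08). Both Ago1 and Ago2 have a 7-mer in the UTR. Ago3 fell from 57.4 to 50.6 CPM (log2 fold change -0.18 ± 0.07, edgeR adjusted p = 0.042). The Ago3 call was lost on leaving out the first, the second or the third empty vector library or the first or second hairpin library, with the edgeR adjusted p at 0.16 without the first hairpin library. Dicer1, which cuts the hairpin, rose from 105 to 128 CPM (log2 fold change 0.28 ± 0.04, edgeR adjusted p = 7.9e-06). Drosha, which acts before it on microRNA precursors, stood at 149.6 and 151 CPM (edgeR adjusted p = 0.76). The GW182 scaffolds, which recruit the deadenylases, went separate ways: Tnrc6b, with a 7-mer in its UTR, fell from 263 to 152 CPM (log2 fold change -0.79 ± 0.07, edgeR adjusted p = 3.9e-08). Tnrc6a rose from 80.3 to 108 CPM (log2 fold change 0.42 ± 0.06, edgeR adjusted p = 2.2e-06). Trim71, a let-7 target, rose from 4.80 to 8.71 CPM (log2 fold change 0.86 ± 0.10, edgeR adjusted p = 3.6e-07), and so did Lin28b, which blocks let-7 maturation (from 5.81 to 8.53 CPM, log2 fold change 0.56 ± 0.15, edgeR adjusted p = 0.0063).

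Few of the loci that carry microRNA hairpins passed the test. Of 151 annotated hairpin loci with enough reads, 13 fell and 4 rose (8.61% and 2.65%), against 19.5% and 20.8% of all genes. Their median log2 fold change was -0.23, and those that passed stood low, at 0.131 to 3.42 CPM with the empty vector. Libraries of total RNA such as these read mostly primary transcripts, not mature microRNAs. In the imprinted region from Dlk1 to Dio3 (chr12:109452823-110281097), 41 hairpin loci were tested, of which 10 fell and 0 rose, with a median log2 fold change of -0.51. The log2 fold change was below 0 at 39 of these 41 loci. Their host noncoding RNAs fell as well: Rian had 1083, 1099.9, 1093 and 1067 CPM with the empty vector and 627, 631, 695 and 619 CPM with the hairpin (log2 fold change -0.76 ± 0.04, edgeR adjusted p = 6.4e-12). Mirg fell from 46.7 to 29.2 CPM (log2 fold change -0.68 ± 0.06, edgeR adjusted p = 7.4e-09). Meg3, the first transcript of the region, stood at 1324, 1469, 1548 and 1341 CPM with the hairpin against 1917, 1935, 1710.0 and 1595 CPM without it and did not pass the test (edgeR adjusted p = 0.071), though it passed with DESeq2 (adjusted p = 0.04) and in the edgeR fit of the 8 libraries (adjusted p = 0.0011). With the mutated hairpins Rian stood at 1097 ± 17.9 CPM and 1077 ± 54.6 CPM, both above the unmutated hairpin (highest edgeR adjusted p = 1.9e-12). Mir124a-1hg, a host of miR-124, fell from 78.3 to 38.7 CPM (log2 fold change -1.02 ± 0.09, edgeR adjusted p = 4.7e-08) and Mir124-2hg from 57.6 to 44.7 CPM (log2 fold change -0.37 ± 0.08, edgeR adjusted p = 0.0007). In the other direction Mir132 and its neighbour Mir212 rose by 1.82 ± 0.48 and 0.88 ± 0.30 on the log2 scale, from low levels (0.131 and 0.505 CPM in the controls, edgeR adjusted p = 0.0041 and 0.024). The third hairpin library was the highest for both, at 0.896 and 1.56 CPM, and without it the log2 fold changes were 1.34 and 0.52 (edgeR adjusted p = 0.032 and 0.17).

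Genes of inhibitory neurons were lower with the hairpin. GABA neurons make their transmitter with the glutamate decarboxylases Gad1 and Gad2 and load it into vesicles with Slc32a1. Of 16 inhibitory neuron markers, 0 rose, 14 fell and 2 did not pass the test (median log2 fold change -1.22). Of 7 genes of GABA synthesis, transport and breakdown, 0 rose, 7 fell and 0 did not pass the test (median log2 fold change -1.25). Gad1 had 219, 242, 213 and 209.8 CPM with the empty vector and 62.4, 105, 78.4 and 79.3 CPM with the hairpin (log2 fold change -1.44 ± 0.17, edgeR adjusted p = 1.3e-05). Gad2, with the 8-mer in its UTR, had 156, 191, 158 and 176 CPM with the empty vector and 23.01, 66.8, 30.6 and 31.1 CPM with the hairpin (log2 fold change -2.16 ± 0.37, edgeR adjusted p = 0.00039). The second hairpin library was the highest of its group for both, and still below every control. Slc32a1 fell from 98.9 to 35.2 CPM (log2 fold change -1.49 ± 0.17, edgeR adjusted p = 9.4e-06), without a 7-mer in its UTR. The summed level of the 16 markers was 1304 to 1546 CPM with the empty vector and 435 to 667 CPM with the hairpin. In such bulk libraries fewer inhibitory neurons and less of these RNAs per neuron cannot be told apart.

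The subtype genes and the transcription factors of the interneuron lineage moved the same way. Sst, the somatostatin of one interneuron class, had 71.996, 65.6, 66.5 and 70.2 CPM with the empty vector and 20.4, 25.8, 30.8 and 19.9 CPM with the hairpin (log2 fold change -1.50 ± 0.11, edgeR adjusted p = 8.8e-09). Pvalb, the parvalbumin of fast-spiking cells, was low in all libraries and fell from 1.51 to 0.328 CPM (log2 fold change -2.19 ± 0.25, edgeR adjusted p = 2.9e-07). Calb2, calretinin, fell from 47.1 to 22.8 CPM (log2 fold change -1.05 ± 0.15, edgeR adjusted p = 4.5e-05). Vip stood at 2.48, 9.26, 5.87 and 5.98 CPM with the hairpin against 4.56, 8.52, 6.16 and 6.14 CPM with the empty vector and did not pass the test (edgeR adjusted p = 0.89). Of 17 lineage factors, 0 rose, 11 fell and 6 did not pass the test (median log2 fold change -0.77). Lhx6, which specifies interneurons from the medial ganglionic eminence, had 29.9, 29.8, 29.1 and 29.5 CPM with the empty vector and 6.63, 10.9, 9.12 and 9.84 CPM with the hairpin (log2 fold change -1.69 ± 0.11, edgeR adjusted p = 1.2e-09). Maf, which guides the same lineage later, fell from 23.7 to 7.63 CPM (log2 fold change -1.63 ± 0.13, edgeR adjusted p = 2.2e-08). Neither Lhx6 nor Maf had a 7-mer in the UTR. Against the mutated hairpins these genes did not share an order. With 2 mutations Gad2 stood at 17.1 ± 7.82 CPM, Sst at 17.8 ± 1.55 CPM, Calb2 at 5.35 ± 0.483 CPM and Pvalb at 0.0782 ± 0.0243 CPM, below the unmutated hairpin (edgeR adjusted p = 0.019, 0.0019, 3.5e-08 and 5.1e-05). Slc32a1 at 74.7 ± 10.6 CPM, Lhx6 at 34.8 ± 2.81 CPM and Maf at 17.9 ± 1.56 CPM stood above it (highest edgeR adjusted p = 6.9e-05), and for Gad1, at 64.5 ± 13.4 CPM, the difference did not pass the test (edgeR adjusted p = 0.1). With 5 mutations Gad1 at 137 ± 18.5 CPM and Sst at 64.7 ± 3.39 CPM stood above the unmutated hairpin (edgeR adjusted p = 0.0017 and 5.9e-09). The differences of Gad2, Slc32a1, Calb2, Pvalb, Lhx6 and Maf from the 5-mutation hairpin did not pass the test (lowest edgeR adjusted p = 0.18).

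ErbB signalling and neuropeptide genes went in both directions. Erbb4, the neuregulin receptor of these cells, which carries the 8-mer at the end of its 3′ UTR, had 140.3, 164, 151 and 157 CPM with the empty vector and 18.1, 35.5, 22.5 and 28.1 CPM with the hairpin (log2 fold change -2.55 ± 0.21, edgeR adjusted p = 5.2e-07). Of 10 ErbB receptors and ligands, 1 rose, 4 fell and 5 did not pass the test (median log2 fold change -0.05). Its ligand gene Nrg1 fell from 19.8 to 15.3 CPM (log2 fold change -0.38 ± 0.06, edgeR adjusted p = 6.9e-05). Hbegf, a ligand of ErbB receptors that is induced by activity, rose from 11.3 to 15.2 CPM (log2 fold change 0.44 ± 0.09, edgeR adjusted p = 0.0003). Of 18 neuropeptide genes, 8 rose, 7 fell and 3 did not pass the test (median log2 fold change -0.21), and 5 rose without the third hairpin library. Cck and Pnoc fell from 119 to 73.5 CPM (log2 fold change -0.69 ± 0.09, edgeR adjusted p = 4.8e-06) and from 23.996 to 10.6 CPM (log2 fold change -1.17 ± 0.14, edgeR adjusted p = 3.5e-06). Nts, neurotensin, had 6.69, 5.21, 4.92 and 6.45 CPM with the empty vector and 17.5, 16.6, 11.7 and 14.5 CPM with the hairpin (log2 fold change 1.38 ± 0.17, edgeR adjusted p = 4.8e-06). The groups did not overlap. Kcnc2, a potassium channel of fast-spiking neurons, had 67.7, 65.03, 66.3 and 68.7 CPM with the empty vector and 12.99, 19.1, 16.8 and 16.4 CPM with the hairpin (log2 fold change -2.03 ± 0.11, edgeR adjusted p = 3.6e-10). Syt2, a synaptotagmin of their terminals, fell from 5.31 to 0.573 CPM (log2 fold change -3.19 ± 0.21, edgeR adjusted p = 7.3e-11).

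Excitatory neuron markers were mixed. Of 13, 5 rose, 4 fell and 4 did not pass the test (median log2 fold change 0.11), and their sum was 2110.0 to 2322 CPM with the empty vector and 2021 to 2085 CPM with the hairpin. Tbr1 and Fezf2, factors of deep-layer projection neurons, rose from 88.6 to 115 CPM (log2 fold change 0.37 ± 0.06, edgeR adjusted p = 1.4e-05) and from 25.4 to 40.2 CPM (log2 fold change 0.66 ± 0.12, edgeR adjusted p = 0.00045). Cux2, a factor of upper layers, fell from 84.4 to 41.2 CPM (log2 fold change -1.03 ± 0.09, edgeR adjusted p = 2.7e-08). Slc17a6, a vesicular glutamate transporter, had 25.3, 26.6, 25.9 and 28.2 CPM with the empty vector and 32.8, 33.7, 56.9 and 33.6 CPM with the hairpin (log2 fold change 0.57 ± 0.15, edgeR adjusted p = 0.0069), and the third hairpin library was far above the others. Without that library the log2 fold change was 0.33 (edgeR adjusted p = 5.5e-05), and in a fit of the 8 libraries without the mutated hairpins the edgeR adjusted p was 0.059. Of 14 pan-neuronal markers, 0 rose, 9 fell and 5 did not pass the test (median log2 fold change -0.34). Among the neurofilament genes, Nefh had 30.4, 26.8, 27.5 and 25.4 CPM with the empty vector and 7.52, 8.16, 7.53 and 7.32 CPM with the hairpin (log2 fold change -1.85 ± 0.10, edgeR adjusted p = 8.7e-12). Nefm fell from 56.9 to 15.8 CPM (log2 fold change -1.85 ± 0.18, edgeR adjusted p = 2.0e-06). Nefl, the light chain, stood at 428 and 355 CPM and did not pass the test (edgeR adjusted p = 0.078), though it passed in the fit of the 8 libraries (edgeR adjusted p = 0.012). Elavl4, a neuronal RNA-binding protein with the 8-mer in its UTR, fell from 101 to 52.8 CPM (log2 fold change -0.93 ± 0.05, edgeR adjusted p = 6.7e-12).

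At the synapse, receptor and channel genes fell more often than they rose. Of 15 AMPA receptor subunits and auxiliary proteins, 1 rose, 9 fell and 5 did not pass the test (median log2 fold change -0.25). All 4 pore subunits fell, and each had a 7-mer or the 8-mer in its UTR: Gria1 had 481, 552, 529.5 and 537 CPM with the empty vector and 244, 271, 244 and 268 CPM with the hairpin (log2 fold change -1.03 ± 0.06, edgeR adjusted p = 5.5e-12), and Gria2, Gria3 and Gria4 fell by 0.48, 0.90 and 0.76 on the log2 scale (highest edgeR adjusted p = 5.1e-05). Of 21 other glutamate receptors, 2 rose, 11 fell and 8 did not pass the test (median log2 fold change -0.18). Grik1, a kainate receptor subunit with no match, fell from 40.5 to 13.6 CPM (log2 fold change -1.57 ± 0.15, edgeR adjusted p = 5.5e-07), and Grm5, a metabotropic receptor with the 8-mer, from 497 to 371 CPM (log2 fold change -0.42 ± 0.07, edgeR adjusted p = 8.9e-05). Of 16 GABA receptor and gephyrin genes, 2 rose, 8 fell and 6 did not pass the test (median log2 fold change -0.14). Gabra4, an alpha subunit, rose from 74.4 to 89.5 CPM (log2 fold change 0.27 ± 0.06, edgeR adjusted p = 0.00051).

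Neurexins and their ligands, which join the synaptic membranes, gave 13 falls and 2 rises in 17 genes (median log2 fold change -0.27). Besides Nxph1 and Nxph2, Cbln1, a bridge between neurexin and glutamate receptors, fell from 35.5 to 17.98 CPM (log2 fold change -0.98 ± 0.07, edgeR adjusted p = 2.5e-10). Nxph3 rose from 17.8 to 29.2 CPM (log2 fold change 0.71 ± 0.08, edgeR adjusted p = 5.9e-07). Potassium channels gave 20 falls and 7 rises in 39 genes, and 12 of the 16 with a 7-mer or 8-mer fell, as did 8 of the 23 without. Sodium and calcium channels gave 13 falls and 1 rise in 23, and 5 of the 9 with a 7-mer or 8-mer fell, as did 8 of the 14 without. Cacna1g, a T-type calcium channel without a match, fell from 93.3 to 43.4 CPM (log2 fold change -1.11 ± 0.04, edgeR adjusted p = 1.2e-14). The vesicle release genes gave 15 falls and 5 rises in 32 (median log2 fold change -0.05), with 3 rises on leaving out the second empty vector, the first hairpin or the third hairpin library, and postsynaptic scaffolds gave 8 falls and 1 rise in 15 (median -0.14). With and without a 7-mer or 8-mer, 6 of 9 and 9 of 23 vesicle release genes fell. For scaffolds these counts were 2 of 4 and 6 of 11, and for neurexins and their ligands 4 of 5 and 9 of 12.

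Glycolysis genes were lower along most of the pathway. Of 20 genes, 0 rose, 19 fell and 1 did not pass the test (median log2 fold change -0.50), and 17 of them have no 7-mer or 8-mer in the UTR. Pfkl, a phosphofructokinase of the committed step, had 151, 146, 132 and 125 CPM with the empty vector and 76.3, 72.9, 73.8 and 85.05 CPM with the hairpin (log2 fold change -0.85 ± 0.06, edgeR adjusted p = 1.7e-10). Pfkfb3, which makes the activator of that enzyme, fell from 67.1 to 32.2 CPM (log2 fold change -1.06 ± 0.07, edgeR adjusted p = 3.2e-10). Further along the pathway, Eno1 fell from 816 to 398 CPM (log2 fold change -1.03 ± 0.06, edgeR adjusted p = 5.2e-11), Pgam1 from 198 to 97.8 CPM (log2 fold change -1.02 ± 0.06, edgeR adjusted p = 5.3e-12) and Ldha, which turns pyruvate into lactate, from 542 to 370.5 CPM (log2 fold change -0.55 ± 0.06, edgeR adjusted p = 2.8e-07). Eno2, the neuronal enolase, stood at 388 and 383 CPM (edgeR adjusted p = 0.75). Gapdh, Pgam1, Eno1 and Ldha have many near-identical pseudogenes, and how reads were shared with these is not given in the sources used here. The nuclear genes of oxidative phosphorylation gave 5 falls and 5 rises in 30 (median log2 fold change 0.04), or 8 rises without the third hairpin library, with Cox6c, a cytochrome oxidase subunit with the 8-mer, at 109.8, 103, 104 and 103 CPM with the empty vector and 48.9, 46.2, 45.4 and 45.7 CPM with the hairpin (log2 fold change -1.17 ± 0.05, edgeR adjusted p = 1.2e-13).

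Most genes of sterol synthesis fell as well. SREBP2 switches on the genes of this pathway when membrane cholesterol is low. Of 28 genes, 1 rose, 22 fell and 5 did not pass the test (median log2 fold change -0.58). Hmgcs1, which makes the precursor of mevalonate, had 1273, 1314, 1431 and 1321 CPM with the empty vector and 593, 596, 769 and 594 CPM with the hairpin (log2 fold change -1.07 ± 0.10, edgeR adjusted p = 1.8e-07), with the third hairpin library the highest of its group. Nsdhl, a late enzyme, fell from 83.1 to 36.02 CPM (log2 fold change -1.21 ± 0.10, edgeR adjusted p = 2.6e-08), and Lss, which closes the ring, from 74.4 to 43.9 CPM (log2 fold change -0.76 ± 0.07, edgeR adjusted p = 2.7e-08). With the mutated hairpins Hmgcs1 was lower still, at 439 ± 42.9 CPM and 518 ± 58.2 CPM, and the differences from the unmutated hairpin passed the test (edgeR adjusted p = 0.00011 and 0.013). Genes of fatty acid synthesis gave 8 falls and 2 rises in 18. Acly, which supplies cytosolic acetyl-CoA, fell from 486 to 242 CPM (log2 fold change -1.01 ± 0.05, edgeR adjusted p = 7.8e-13), and the desaturase Scd1 from 94.2 to 44.8 CPM (log2 fold change -1.07 ± 0.15, edgeR adjusted p = 5.4e-05). Acaca, the carboxylase, stood at 216 and 215 CPM (edgeR adjusted p = 0.85). The letters TCACCCCA, as in the classical sterol element, or TCACGCCA occurred on either strand in 2 of the 21 list members with a RefSeq promoter (250 bases before to 50 after the start) and in 1.85% of all 27025 promoters. The stretches of both members are shown with the letters searched in capitals, on the gene's strand, like those that follow from RefSeq promoters on GRCm38.p6.
Hmgcs1, chr13:119690205-119690230 (+): gtcaccgtcTCACCCCActtcccagg.
Srebf2, chr15:82147098-82147123 (+): gacgcaccaTCACCCCAtgagccgct.

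**Figure D4:**
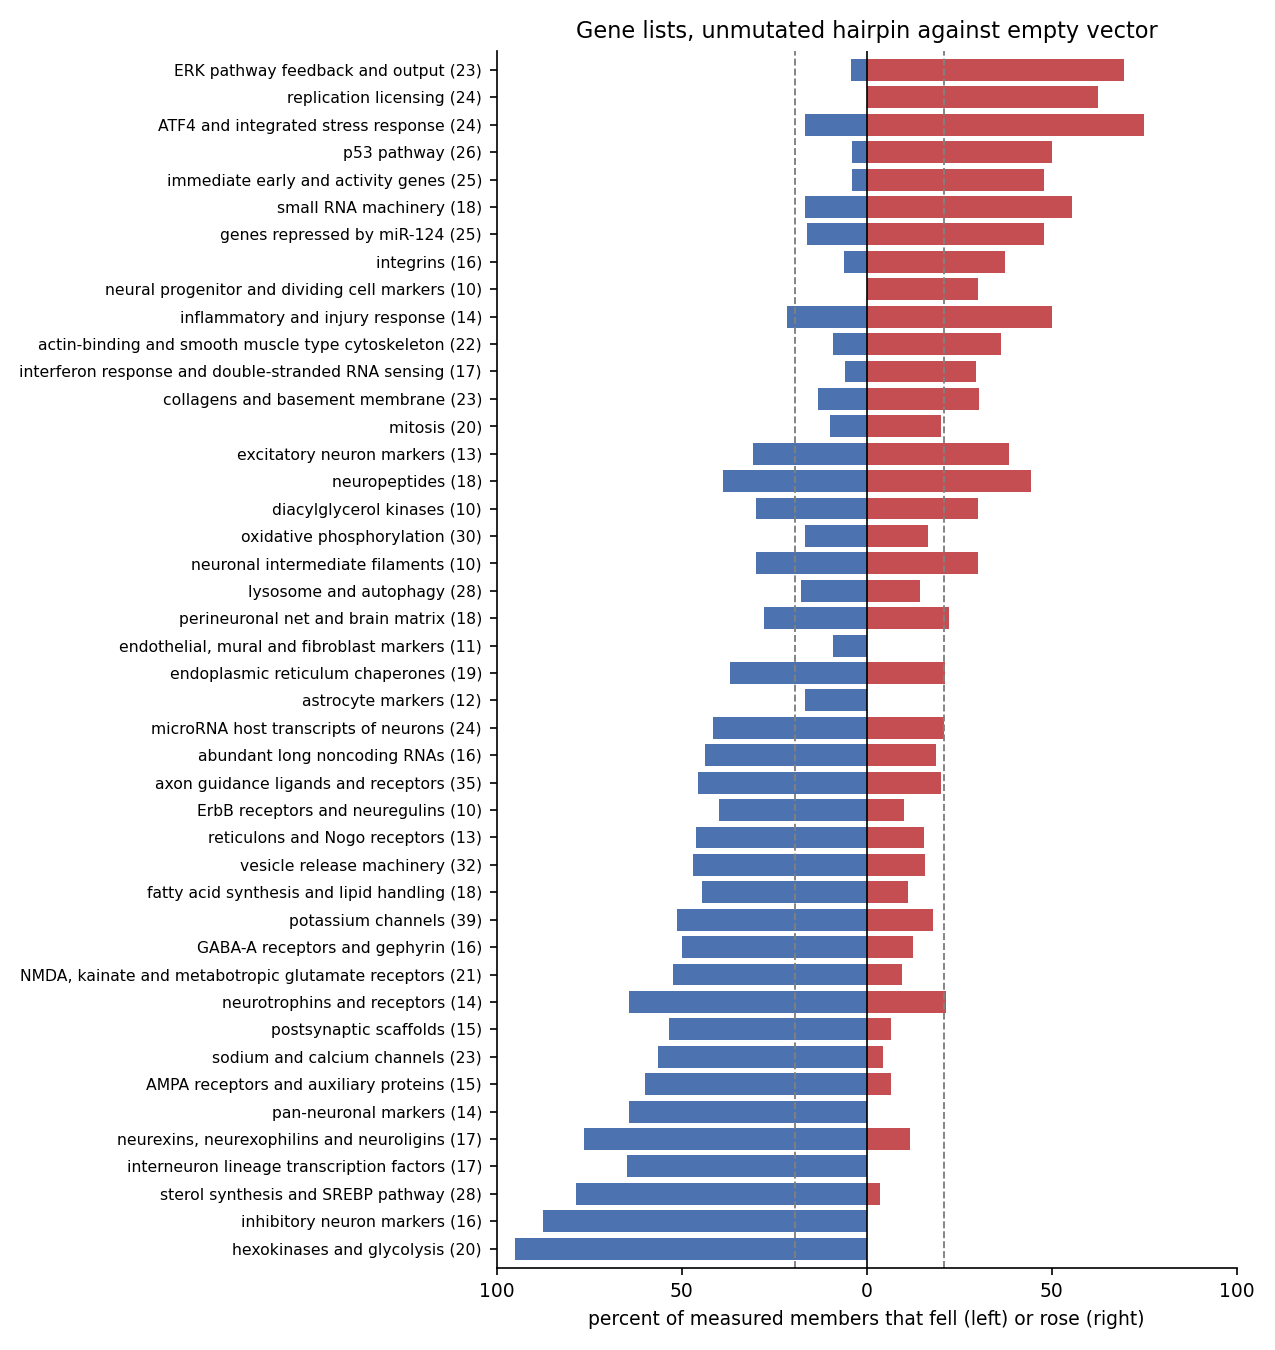
Share of the measured members of each list with at least 10 (number in parentheses) that fell (left) or rose (right) with the hairpin; dashed lines mark the 19.5% of all genes that fell and the 20.8% that rose. Of protein-coding genes 23.4% fell and 25.3% rose. Inhibitory neuron markers, glycolysis and sterol synthesis lie far to the left, and the ATF4, ERK and replication licensing lists to the right.

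The opposite shift was seen in the feedback and output genes of ERK signalling, the kinase cascade downstream of growth factors. Of 23 genes, 16 rose, 1 fell and 6 did not pass the test (median log2 fold change 0.63). Spry4, a feedback inhibitor, had 14.2, 12.9, 14.2 and 13.9 CPM with the empty vector and 44.8, 35.2, 48.4 and 38.8 CPM with the hairpin (log2 fold change 1.59 ± 0.11, edgeR adjusted p = 3.7e-09). Dusp5 and Dusp6, phosphatases that switch ERK off, rose from 2.72 to 8.55 CPM (log2 fold change 1.66 ± 0.10, edgeR adjusted p = 1.5e-11) and from 23.99 to 52.7 CPM (log2 fold change 1.14 ± 0.13, edgeR adjusted p = 8.4e-06). Etv5, a transcription factor induced by ERK, had 32.6, 26.4, 27.2 and 32.4 CPM with the empty vector and 94.8, 77.6, 108 and 77.3 CPM with the hairpin (log2 fold change 1.59 ± 0.14, edgeR adjusted p = 6.1e-07). The groups were apart for all 4, with the third hairpin library the highest for each. Myc stood at 7.97 and 8.14 CPM (edgeR adjusted p = 0.84). Against the mutated hairpins the order was not the same for every gene: Etv5 was 9.92 ± 1.39 CPM with 2 and 107 ± 17.3 CPM with 5 mutations, and the unmutated hairpin differed from the first (edgeR adjusted p = 2.0e-10) but the difference from the second did not pass the test (log2 difference -0.26 ± 0.13, edgeR adjusted p = 0.12).

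Genes induced by neuronal activity rose in part, and the third hairpin library was the highest of its group for each of those named here. Of 25 genes, 12 rose, 1 fell and 12 did not pass the test (median log2 fold change 0.54), and without the third hairpin library 11 rose and 2 fell. Bdnf, the activity-dependent neurotrophin, had 25.7, 23.7, 27.6 and 24.3 CPM with the empty vector and 63.4, 61.6, 109 and 65.04 CPM with the hairpin (log2 fold change 1.56 ± 0.18, edgeR adjusted p = 1.2e-05). The third library was far above the other 3, which were themselves above every control, and without it the log2 fold change was 1.32 (edgeR adjusted p = 5.8e-08). Arc, a synaptic plasticity protein, rose from 4.50 to 11.8 CPM (log2 fold change 1.39 ± 0.22, edgeR adjusted p = 0.00015), Egr1 from 16.5 to 30.99 CPM (log2 fold change 0.91 ± 0.12, edgeR adjusted p = 1.1e-05) and Btg2 from 11.7 to 26.4 CPM (log2 fold change 1.17 ± 0.14, edgeR adjusted p = 5.2e-06). Egr3 fell from 50.8 to 37.1 CPM (log2 fold change -0.45 ± 0.06, edgeR adjusted p = 5.1e-06). The secreted products Vgf and Scg2 had 335, 274, 411 and 309.5 CPM and 335, 322, 519 and 332 CPM with the hairpin, against 229, 163, 198 and 197 CPM and 249, 212, 249 and 214 CPM without it (edgeR adjusted p = 0.00064 and 0.0018). Nptx2, a pentraxin that gathers AMPA receptors, had 13.4, 10.4, 9.87 and 10.3 CPM with the empty vector and 20.9, 20.3, 37.1 and 16.05 CPM with the hairpin, and its log2 fold change went from 1.10 ± 0.28 (edgeR adjusted p = 0.0063) to 0.80 without the third library (edgeR adjusted p = 0.014). What set the third library apart was not tested.

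**Figure D5:**
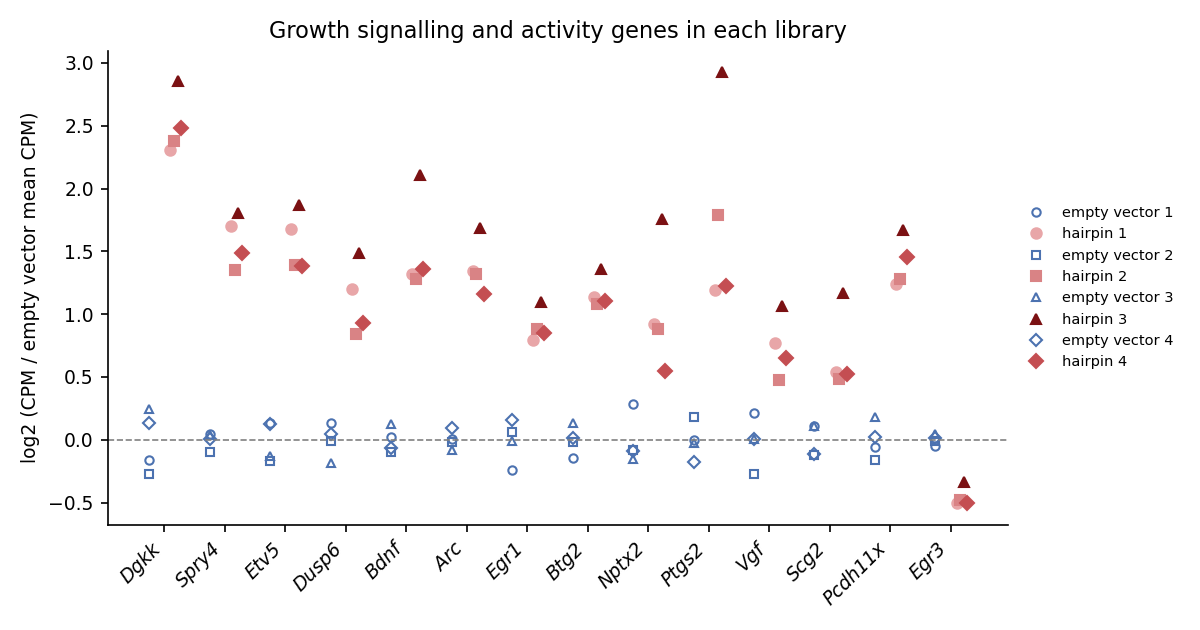
Log2 ratio of CPM to the empty vector mean in each library for 14 growth signalling and activity genes chosen after their values were seen; open blue symbols are empty vector libraries and filled red symbols hairpin libraries, numbered by replicate, with replicate 3 darkest. Hairpin replicate 3 is the highest of its group for all 14 genes shown, and Egr3 lies below 0 in all 4 hairpin libraries.

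Bdnf rose, while Ntrk2 and Ntrk3, receptors of its family, fell. Of 14 neurotrophin genes and receptors, 3 rose, 9 fell and 2 did not pass the test (median log2 fold change -0.23). Ntrk2, the receptor of BDNF, fell from 561 to 472 CPM (log2 fold change -0.25 ± 0.05, edgeR adjusted p = 0.00013), Ntrk3 from 358 to 273 CPM (log2 fold change -0.39 ± 0.06, edgeR adjusted p = 2.1e-05), and Ntf3, another ligand, from 3.10 to 1.35 CPM (log2 fold change -1.21 ± 0.17, edgeR adjusted p = 6.0e-06). Dgkk, a diacylglycerol kinase, showed the largest rise of the well measured genes, with 23.6, 21.9, 31.3 and 28.9 CPM with the empty vector and 130.5, 137, 191 and 148 CPM with the hairpin (log2 fold change 2.51 ± 0.16, edgeR adjusted p = 3.0e-08). It stood at 7.17 ± 1.05 CPM and 26.1 ± 4.71 CPM with the mutated hairpins, and the unmutated hairpin was above both (edgeR adjusted p = 5.3e-11 and 9.3e-09). The other 9 measured diacylglycerol kinases lay between log2 fold changes of -0.44 (Dgkh) and 0.38 (Dgkz). Pcdh11x, an X-linked protocadherin, rose from 66.99 to 179 CPM (log2 fold change 1.42 ± 0.10, edgeR adjusted p = 1.6e-08), Cp, the copper carrier ceruloplasmin, from 3.60 to 19.9 CPM (log2 fold change 2.46 ± 0.43, edgeR adjusted p = 0.00048), Marveld1 from 1.81 to 8.22 CPM (log2 fold change 2.19 ± 0.12, edgeR adjusted p = 4.9e-12) and Stac, an adaptor of calcium channels, from 2.41 to 10.1 CPM (log2 fold change 2.06 ± 0.18, edgeR adjusted p = 1.1e-08).

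Genes of the integrated stress response rose. ATF4 is translated when the initiation factor eIF2 is phosphorylated, and it switches on amino acid transport, serine and one-carbon metabolism. Of 24 genes, 18 rose, 4 fell and 2 did not pass the test (median log2 fold change 0.58). Mthfd2, a mitochondrial one-carbon enzyme, had 31.1, 24.6, 27.98 and 26.4 CPM with the empty vector and 76.4, 62.2, 60.9 and 69.2 CPM with the hairpin (log2 fold change 1.29 ± 0.10, edgeR adjusted p = 2.5e-08). Psph and Shmt2, of serine and glycine synthesis, rose from 13.5 to 26.9 CPM (log2 fold change 0.99 ± 0.08, edgeR adjusted p = 7.6e-10) and from 28.9 to 61.02 CPM (log2 fold change 1.08 ± 0.10, edgeR adjusted p = 2.5e-07), Trib3, a feedback inhibitor, from 3.31 to 7.58 CPM (log2 fold change 1.19 ± 0.16, edgeR adjusted p = 3.0e-06), and Chac1, which breaks down glutathione, from 18.7 to 33.1 CPM (log2 fold change 0.82 ± 0.10, edgeR adjusted p = 7.2e-07). Ddit4, an inhibitor of mTORC1 that carries the 8-mer in its UTR, went down instead, with 93.1, 91.1, 96.8 and 94.7 CPM with the empty vector and 30.8, 27.99, 29.7 and 28.9 CPM with the hairpin (log2 fold change -1.68 ± 0.04, edgeR adjusted p = 2.9e-17). Mthfd2 stood at 23.5 ± 1.004 CPM and 22.05 ± 3.72 CPM with the mutated hairpins, below the unmutated one (edgeR adjusted p = 6.8e-10 and 5.3e-10). The chaperones of the endoplasmic reticulum gave 7 falls and 4 rises in 19 (median log2 fold change 0.02), with 2 rises on leaving out the second empty vector, the second hairpin or the third hairpin library, and Hspa5, their master chaperone, stood at 288 and 295 CPM (edgeR adjusted p = 0.71). The letters TGATGCAA or TGATGAAA, forms of the element that ATF4 binds, occurred on either strand in 6 of 23 list promoters of the same length and in 1.92% of all. Of these 6 members Nupr1 fell, Pycr1 did not pass the test and the others rose. The stretches of 3 members that rose are shown, chosen to hold both spellings. Capitals on the opposite strand read in reverse complement.
Chac1, chr2:119351040-119351065 (+): tccctgccgTTGCATCActcctgcca.
Atf3, chr1:191183427-191183452 (-): ttctcgcacTTGCATCAccaagtccg.
Asns, chr6:7693216-7693241 (-): ccagccacaTGATGAAActtcccgca.

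Replication licensing genes, which load the MCM helicase onto DNA before S phase, rose. Of 24 genes, 15 rose, 0 fell and 9 did not pass the test (median log2 fold change 0.47). Mcm6 had 12.8, 11.6, 12.1 and 11.7 CPM with the empty vector and 34.5, 34.7, 31.3 and 34.3 CPM with the hairpin (log2 fold change 1.48 ± 0.06, edgeR adjusted p = 3.8e-14), Cdt1, the MCM loader, rose from 1.93 to 6.73 CPM (log2 fold change 1.79 ± 0.12, edgeR adjusted p = 5.4e-11), and Mcm5 from 1.90 to 4.54 CPM (log2 fold change 1.26 ± 0.14, edgeR adjusted p = 2.7e-07). Of 20 mitotic genes, 4 rose, 2 fell and 14 did not pass the test (median log2 fold change 0.03), with Aurka, a spindle kinase, at 1.49 CPM in the controls and falling to 0.862 CPM (log2 fold change -0.79 ± 0.17, edgeR adjusted p = 0.00072). The mitotic genes summed to only 25.2 to 26.7 CPM with the empty vector, against 145 to 153 CPM for the 24 licensing genes. Their calls thus rest on fewer reads. Markers of progenitors and dividing cells summed to 86.6 to 114 CPM with the empty vector and 131 to 167 CPM with the hairpin, 3 of 10 rose (1 without the third empty vector library). Mki67, the marker of cycling cells, stood at 0.916, 1.19, 1.36 and 1.54 CPM with the hairpin against 0.775, 0.834, 1.17 and 0.960 CPM with the empty vector (edgeR adjusted p = 0.23). The part of such cells in the licensing genes was not tested. TTTCCCGC or TTTGGCGC, forms of the E2F element, occurred on either strand in 9 of 19 list promoters, 8 of these in genes that rose, and in 1.63% of all promoters. The stretches of 3 members are shown with these letters in capitals.
Mcm6, chr1:128359799-128359824 (-): gcgtatgctTTTGGCGCgaaaagtgc.
Mcm5, chr8:75109351-75109376 (+): agaactttcGCGCCAAAacgtccagc.
Cdt1, chr8:122568038-122568063 (+): aactaccttTTTGGCGCcatggcgca.
Of 26 genes of the p53 pathway, 13 rose, 1 fell and 12 did not pass the test (median log2 fold change 0.28). Cdkn1a, the inhibitor of cyclin-dependent kinases, had 99.4, 86.3, 89.7 and 88.8 CPM with the empty vector and 172, 156, 177 and 160.0 CPM with the hairpin (log2 fold change 0.87 ± 0.10, edgeR adjusted p = 5.9e-06). Phlda3, a repressor of Akt, rose from 17.8 to 36.8 CPM (log2 fold change 1.05 ± 0.11, edgeR adjusted p = 3.9e-07). Rrm2b, the ribonucleotide reductase subunit that p53 induces, went the other way and fell from 42.1 to 16.3 CPM (log2 fold change -1.37 ± 0.05, edgeR adjusted p = 1.1e-14), and it carries the 8-mer in both its coding sequence and its UTR.

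Astrocyte markers were abundant, and those of other glial and vascular cells were low. Of 12 astrocyte markers, 0 rose, 2 fell and 10 did not pass the test (median log2 fold change 0.15), and their sum was 1322 to 1591 CPM with the empty vector and 1127 to 1516 CPM with the hairpin. Slc1a2, a glutamate transporter with the 8-mer that neurons also express, fell from 713 to 454 CPM (log2 fold change -0.65 ± 0.07, edgeR adjusted p = 7.0e-07). Aqp4, the astrocyte water channel, stood at 36.99, 37.3, 30.8 and 50.1 CPM with the hairpin against 19.4, 27.6, 19.1 and 31.6 CPM with the empty vector (edgeR adjusted p = 0.087). Oligodendrocyte lineage markers, 7 of 12 with enough reads, gave 4 rises and 0 falls, and their sum was 59.05 to 71.2 CPM with the empty vector and 86.7 to 106 CPM with the hairpin. Endothelial, mural and fibroblast markers summed to 30.7 to 41.02 CPM with the empty vector and 31.4 to 45.5 CPM with the hairpin. Vim, the intermediate filament of glia and progenitors, rose from 60.7 to 101 CPM (log2 fold change 0.73 ± 0.19, edgeR adjusted p = 0.0066). The interferon genes gave 5 rises and 1 fall in 17 with enough reads of 27 listed, and 3 rises when the first, the second or the third empty vector library or the third hairpin library was left out. In the main fit the other 11 did not pass the test (median log2 fold change of the list 0.14). The list summed to 253 to 275 CPM with the empty vector and 253 to 266 CPM with the hairpin. Ifih1 and Ddx58, sensors of double-stranded RNA, rose from 0.540 to 1.01 CPM (log2 fold change 0.91 ± 0.20, edgeR adjusted p = 0.00095) and from 1.16 to 2.05 CPM (log2 fold change 0.82 ± 0.19, edgeR adjusted p = 0.0014). Lcn2, an acute phase protein of injured brain, had 0.144, 0.417, 0.199 and 0.336 CPM with the empty vector and 1.59, 5.005, 1.82 and 2.09 CPM with the hairpin (log2 fold change 3.27 ± 0.40, edgeR adjusted p = 1.5e-06) and was highest in the second hairpin library. Ptgs2, the inducible cyclooxygenase, was highest in the third, with 2.10, 3.18, 6.99 and 2.14 CPM with the hairpin against 0.919, 1.04, 0.905 and 0.816 CPM with the empty vector (log2 fold change 1.97 ± 0.52, edgeR adjusted p = 0.0077).

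Matrix and adhesion genes were split. Col4a1 and Col4a2, the main chains of basement membrane collagen, transcribed from opposite strands of 1 locus, rose from 30.1 to 71.2 CPM (log2 fold change 1.24 ± 0.21, edgeR adjusted p = 0.00036) and from 47.7 to 102 CPM (log2 fold change 1.10 ± 0.08, edgeR adjusted p = 2.6e-09). Of 23 genes of that list, 7 rose, 3 fell and 13 did not pass the test (median log2 fold change 0.66). Itga7, an integrin chain, rose from 2.35 to 7.35 CPM (log2 fold change 1.66 ± 0.10, edgeR adjusted p = 2.9e-11). Of 16 integrins, 6 rose, 1 fell and 9 did not pass the test (median log2 fold change 0.19). Reln, the layering signal secreted by interneurons and Cajal-Retzius cells, fell from 279 to 142 CPM (log2 fold change -0.98 ± 0.16, edgeR adjusted p = 0.0002), and Hapln1, a link protein of perineuronal nets with the 8-mer, from 27.4 to 11.3 CPM (log2 fold change -1.27 ± 0.20, edgeR adjusted p = 0.00017). Of 35 axon guidance genes, 7 rose, 16 fell and 12 did not pass the test (median log2 fold change -0.05). Of the 9 with a 7-mer or 8-mer in the UTR 4 fell, as did 12 of the 26 without. The Slit receptors went apart: Robo2, with the 8-mer, fell from 168 to 78.03 CPM (log2 fold change -1.11 ± 0.08, edgeR adjusted p = 1.3e-09) and Robo1 rose from 118 to 166 CPM (log2 fold change 0.49 ± 0.06, edgeR adjusted p = 6.3e-07). The ligand gene Slit3 fell from 88.8 to 40.4 CPM (log2 fold change -1.14 ± 0.07, edgeR adjusted p = 3.7e-11).

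A few genes were near 0 counts in one group. Chrna2, a nicotinic receptor subunit of a class of Sst interneurons, had 17, 4, 16 and 6 counts with the empty vector and 0, 0, 0 and 0 with the hairpin. Chrna6, another nicotinic subunit, had 4, 10, 2 and 5 counts with the empty vector and 0, 0, 0 and 1 with the hairpin. At this depth only the counts themselves are given. In the other direction, Flg, filaggrin of the skin, had 0, 0, 0 and 0 counts with the empty vector and 12, 44, 94 and 16 with the hairpin, and Sim1, a hypothalamic transcription factor, had 2, 0, 0 and 0 counts with the empty vector and 11, 28, 111 and 8 with the hairpin. For both, the third hairpin library held the most.

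Gene class went with the share of genes that passed the test, and gene size with direction. Among 14470 protein-coding genes 25.3% rose and 23.4% fell, and among 757 intergenic noncoding RNAs 14.3% rose and 10.96% fell. Other noncoding classes leaned either way: 12.1% of 672 antisense RNAs rose and 6.25% fell, while 3.30% of 212 sense intronic RNAs rose and 5.66% fell. Long genes fell more often: of 536 protein-coding genes spanning 300 kb or more 42.9% fell and 17.4% rose, and of 3396 genes under 10 kb 15.2% fell and 26.4% rose. Several of the long synaptic genes named above, such as Erbb4, Robo2 and Grm5, also carry the 8-mer, and the share of each feature in these counts was not tested.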

How the data were processed

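Total RNA of the transduced cultures was depleted of ribosomal RNA and made into strand-marked libraries, per the labels' protocols. The authors deposited 1 table of raw counts of reads per gene. Per the submitters' processing notes, the tools were featureCounts, edgeR, STAR 2.7.2b, cutadapt 1.15, Trim Galore 0.6.0 and bcl2fastq 2.20.0.422, with the build GRCm38.p6. The strand and multimapping settings of the counting are not given in the sources used here, so reads of genes that overlap on opposite strands (such as Rtn4 and Eml6) and of close copies may be shared.

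Groups came from the labels. Genes that passed edgeR's filterByExpr were fitted with edgeR 4.0.16 (TMM scaling, robust quasi-likelihood test, two-sided, 1 coefficient per group over all 16 libraries, Benjamini-Hochberg adjustment over all genes tested), after the script was tested on simulated data. CPM are TMM-scaled. For 3′ UTR matches, the longest annotated UTR of at least 50 bases per gene was used (GENCODE vM21), and for promoters and microRNAs the RefSeq tables. Gene lists were described by counts and medians, with no set test.

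The comparison, the lists and the tests were chosen with earlier results of these data known. Genes were named by a rule: the 20 highest and 20 lowest log2 fold changes among called genes averaging 2 or more in log2 CPM without overlap between groups, the 8 largest gains and losses in CPM, in each list every measured member up to 10 or else the 8 smallest and 2 largest p-values, all reticulon and small RNA genes, and genes near 0 counts in 1 group. Some genes that the rule names are not reported here. Alternatives were RLE size factors, DESeq2 1.42.0, no filter on low counts, the 8 libraries alone, a replicate block, protein-coding genes alone, removal of the loci Gm26917 and Gm42418, and leaving out each library in turn.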

Additional observations from a re-analysis of the deposited data

Results flagged for a closer look

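Each gene or marker sum named in the text was checked for a library far from the other 3 of its group, by a gap to the nearest library that, as a share of the group's range, exceeds Dixon's 95% critical value for 4 samples. Of 322 groups of 4 values, 28 met this, and chance alone would flag about 1 in 20 groups. The third hairpin library accounted for 11.

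In the third hairpin library the distant values were Omg 31.9 CPM (others 23.5 to 24.3, highest), Rian 695 CPM (others 619 to 631, highest), Mir124-2hg 53.8 CPM (others 40.4 to 42.4, highest), Slc17a6 56.9 CPM (others 32.8 to 33.7, highest), Eno2 367 CPM (others 387 to 389, lowest), Hmgcs1 769 CPM (others 593 to 596, highest), Bdnf 109 CPM (others 61.6 to 65.04, highest), Egr3 40.2 CPM (others 35.8 to 36.5, highest), Scg2 519 CPM (others 322 to 335, highest), Mcm6 31.3 CPM (others 34.3 to 34.7, lowest) and Robo2 94.02 CPM (others 72.1 to 73.7, highest). In the second hairpin library the distant values were Slc32a1 50.5 CPM (others 28.7 to 31.6, highest), Nefl 301 CPM (others 370.4 to 374, lowest) and Lcn2 5.005 CPM (others 1.59 to 2.09, highest). In the first hairpin library the distant values were Tuba1a 1713 CPM (others 1447 to 1488, highest), Marveld1 9.16 CPM (others 7.79 to 7.97, highest) and Rrm2b 15.1 CPM (others 16.6 to 16.8, lowest). In the fourth hairpin library the distant values were Csf1r 2.42 CPM (others 0.999 to 1.13, highest), Ifih1 1.31 CPM (others 0.889 to 0.959, highest) and the summed astrocyte markers 1516 CPM (others 1127 to 1184, highest). In the first empty vector library the distant values were Setd7 115 CPM (others 125 to 126, lowest) and Nptx2 13.4 CPM (others 9.87 to 10.4, highest). In the second empty vector library the distant values were Htr2a 11.1 CPM (others 7.65 to 8.07, highest) and Cck 135 CPM (others 111 to 115, highest). In the third empty vector library the distant values were Fam210b 23.9 CPM (others 21.4 to 21.6, highest), Ntrk3 390.0 CPM (others 346 to 349, highest) and Cdt1 2.12 CPM (others 1.87 to 1.88, highest). In the fourth empty vector library the distant value was Aurka 1.18 CPM (others 1.57 to 1.64, lowest). In each bracket the range is that of the other 3 libraries of the group, followed by the side on which the value lay. No cause was tested.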

How the results depend on the processing

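Over the 15 alternatives (scaling, test, filter, libraries, gene classes, block) the number of genes that rose ranged from 3559 to 4442 and the number that fell from 3452 to 4147. Leaving out 1 library gave 3559 to 3864 and 3452 to 3648. No named gene with a call reversed. Calls were lost for Ago3, as given above, for Slc17a6 in the fit on 8 libraries, and for the microglial gene Csf1r (edgeR adjusted p up to 0.079) without empty vector replicate 2 or hairpin replicate 1, 2 or 3. Some genes without a call changed sign when 1 library was left out, with log2 fold changes of -0.35 to 0.044 for Aif1, -0.40 to 0.15 for Vip, -0.031 to 0.0024 for Eno2, -0.023 to 0.0098 for Acaca and -0.0084 to 0.059 for Hspa5. Meg3 passed the test with DESeq2 (adjusted p = 0.04), in the edgeR fit on 8 libraries (0.0011) and without the filter on low counts (2.4e-10), Nefl in the last 2 of these and among protein-coding genes alone, and Aqp4 without the filter. Without that filter the astrocyte list went from 0 to 6 rises, activity genes from 12 to 20 and collagens from 7 to 14. Counts of 1 or 2 calls moved by single genes when 1 library was left out, among them the rises of sterol synthesis (1 to 0), fatty acid synthesis (2 to 1) and GABA receptors (2 to 1) and the falls of mitotic genes (2 to 1). The cause was not tested.

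The difference in match score between hairpin and empty vector for the joined 7-mers was -0.202 without covariates, -0.201 in genes averaging 2 or more in log2 CPM and -0.216 with ATGAAACA or its first 7 bases alone, against -0.184. For the 8-mer it was -0.311 and -0.318 in the first and second of these settings, against -0.273. For the highest 7-mer it was 0.0142 without covariates, against 0.047. Of the 41 microRNA families, 41 moved by at least 1 SD of the hairpin libraries without covariates, 22 in the better measured genes and 20 with the longer matches alone.

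Replicate numbers were not used as a block. Over all 19479 genes tested, same-numbered libraries deviated together with correlations of 0.076 to 0.143, 1 of them below 0.1. Over the 11375 genes averaging 2 or more in log2 CPM the correlations were 0.309 to 0.381. Their size thus depended on the genes used. Every library correlated best with its own number in both sets, so by that measure the numbers behaved as pairs in both. With the replicate block 4442 genes rose and 4147 fell, and Rtn4r, Meg3, Nefl and Aqp4 passed the test (edgeR adjusted p = 0.049, 0.034, 0.00079 and 0.032), with no other change of call among the named genes. The block gave 12 rises among collagens, 11 among axon guidance genes, 9 among vesicle release genes and 8 in oxidative phosphorylation.

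Genes near 1 CPM, such as Pvalb and Mir132, rest on few reads, and 4 libraries per group limit every comparison.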
